A study of Mus musculus with 8 samples.

Results

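The regions described here are the ATAC-seq peaks whose center lay in the immunoglobulin loci of the mouse genome (mm10). The windows ran on chromosome 12 from 113.20 to 116.05 Mb for Igh, on chromosome 6 from 67.50 to 70.75 Mb for Igk and on chromosome 16 from 19 to 19.30 Mb for Igl. MPP3 cells had 164 of 87642 peaks in these windows (134 in Igh, 23 in Igk and 7 in Igl), and MPP4 cells had 170 of 86952 (154 in Igh, 16 in Igk and 0 in Igl). In ATAC-seq, a transposase cuts accessible DNA, so the reads under a peak report how open the region was.

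Multipotent progenitors give rise to all blood lineages, and the MPP3 population is biased to myeloid and MPP4 to lymphoid output. Both were sorted from bone marrow depleted of cells with CD3, B220, CD11b, Gr1 or Ter119, MPP3 as LSK CD150- CD48+ cells and MPP4 as LSK CD150- CD48+ Flt3+ cells. All mice were C57BL/6 with both Ebf1 alleles floxed. WT mice had no Cre (Tie2Cre +/+), and KO mice carried Tie2Cre on 1 chromosome (Tie2Cre +/cre), which acts in endothelium and in adult hematopoietic stem cells and their progeny. There were 2 libraries for each genotype and cell type, 8 in all. The mice were 8 weeks old in the MPP3 WT and MPP4 KO groups, 9 weeks old in the MPP4 WT group, and 8 and 9 weeks old in the MPP3 KO group, and they were female except for 1 male MPP4 WT mouse. The depth of each library is unknown here. The values used were the position of each peak and its mean log2 CPM (read counts scaled to the library total, on a log2 scale) over the 4 libraries of a cell type, WT and KO together. They therefore carry no genotype effect, no replicate error and no test, and a peak found in WT or in KO cells alone cannot be told from one found in both. The MPP3 and MPP4 tables were normalized separately, so levels of the 2 cell types are given side by side as a description. In a sorted population, fewer cells with an open site and a less open site in each cell cannot be told apart. A peak missing from a table was below the threshold for peaks, and no level is known for it.

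Antibody genes are assembled in B lineage cells by V(D)J recombination, in which the RAG1 and RAG2 proteins cut beside variable (V), diversity (D) and joining (J) gene segments and the ends are joined. The cuts are made at recombination signals, which consist of a heptamer next to the segment, a spacer of 12 or 23 bases and a nonamer. The heavy chain locus Igh joins D to J and then V to DJ, whereas the light chain loci Igk and Igl join V to J directly. In Igh, the intronic enhancer Eμ and the switch region of Ighm lie between the J segments and Ighm, the first constant gene, and a 3′ regulatory region with several enhancers and CTCF sites lies beyond Igha, the last. Igk has an intronic enhancer before its single constant gene Igkc and further enhancers beyond it, and the Igl enhancers lie beyond the constant gene clusters. These events are completed in cells that are more mature than the progenitors measured here.

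The annotation (GENCODE vM21) placed 197 V, 23 D, 4 J and 9 constant genes or pseudogenes in Igh, 176 V, 5 J and 1 constant gene in Igk, and 3 V, 5 J and 4 constant genes in Igl. Igh is read from the minus strand, so its constant genes have the lowest coordinates and its V segments the highest. The sequences below are those that the results turn on, read from mm10 in the direction of the gene. The first is the whole MPP4 peak between the J segments and Ighm (chr12:113427386-113427642, minus strand), with an octamer and E-boxes (CAGGTG or CAGCTG) in capitals on either strand. The second is a stretch of the neighboring wide peak (chr12:113424855-113425004, minus strand) with the switch pentamers GAGCT and GGGGT in capitals. The third is a whole D segment under a peak, with the bases on each side of it (chr12:113430493-113430573, minus strand). The letters CACAGTG and ACAAAAACC are in capitals. They lie on opposite sides of the segment and are not parts of the same recombination signal.
Igh joining-to-constant peak: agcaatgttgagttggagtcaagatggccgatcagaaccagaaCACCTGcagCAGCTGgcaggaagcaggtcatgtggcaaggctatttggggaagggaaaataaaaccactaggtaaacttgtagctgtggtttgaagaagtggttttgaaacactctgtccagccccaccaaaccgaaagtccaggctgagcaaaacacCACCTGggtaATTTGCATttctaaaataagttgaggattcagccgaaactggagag
switch repeats: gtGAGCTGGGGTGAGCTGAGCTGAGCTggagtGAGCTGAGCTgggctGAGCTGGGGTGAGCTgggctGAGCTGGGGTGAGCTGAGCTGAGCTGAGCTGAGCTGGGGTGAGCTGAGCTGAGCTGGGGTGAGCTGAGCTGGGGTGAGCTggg
Ighd4-1: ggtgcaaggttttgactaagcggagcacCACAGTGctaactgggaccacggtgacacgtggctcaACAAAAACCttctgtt

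The next set shows the last 12 bases of V segments and the 39 bases after them. Most V peaks near a segment were centered within 200 bp of its 3′ end. Capitals mark the 7 bases at the place of the heptamer and, where it is present, the letters ACCACA, the core that RUNX proteins recognize, read in the direction of the segment. The first 6 are segments with a peak, at chr12:115312127-115312177, chr12:115802609-115802659, chr12:115623122-115623172, chr12:115165738-115165788, chr12:114564539-114564589 and chr6:68631924-68631974. The last 2, at chr12:113588228-113588278 and chr12:114665833-114665883, had none. All 8 are on the minus strand.
Ighv1-58: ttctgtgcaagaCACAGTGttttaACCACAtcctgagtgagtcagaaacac
Ighv1-74: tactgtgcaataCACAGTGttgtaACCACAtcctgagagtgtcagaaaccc
Ighv1-69: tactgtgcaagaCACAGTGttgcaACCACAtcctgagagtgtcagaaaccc
Ighv8-6: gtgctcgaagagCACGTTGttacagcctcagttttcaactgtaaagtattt
Ighv15-2: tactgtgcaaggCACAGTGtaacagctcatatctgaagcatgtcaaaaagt
Igkv10-96: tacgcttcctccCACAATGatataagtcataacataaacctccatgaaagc
Ighv2-2: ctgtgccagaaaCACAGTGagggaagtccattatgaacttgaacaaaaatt
Ighv1-16: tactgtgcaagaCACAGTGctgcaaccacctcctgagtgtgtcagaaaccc

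The last set comes from peaks of MPP3 cells that had no counterpart in MPP4 cells. They are the peak before Igkc (chr6:70725774-70726006, plus strand, E-box in capitals), part of a peak beyond Igkc (chr6:70735636-70735785, plus strand) and part of a peak between the Igl clusters (chr16:19179342-19179491, minus strand). In the last 2, capitals mark a composite of the PU.1 and IRF motifs (GGAANTGAA) and, in the Igl stretch, also an E-box. Then follow stretches with the EBF1 motif (TCCCNNGGG or CCCNNGGGA) in capitals, from the peaks near Iglv1 (chr16:19088049-19088108, minus strand) and Iglv2 (chr16:19263404-19263463, minus strand) and from a peak beyond Igha (chr12:113228363-113228422, minus strand).
Igk joining-to-constant peak: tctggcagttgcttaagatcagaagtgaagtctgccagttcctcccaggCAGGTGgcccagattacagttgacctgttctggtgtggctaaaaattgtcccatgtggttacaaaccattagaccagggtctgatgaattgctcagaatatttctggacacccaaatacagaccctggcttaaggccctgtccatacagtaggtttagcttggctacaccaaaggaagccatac
Igk downstream peak: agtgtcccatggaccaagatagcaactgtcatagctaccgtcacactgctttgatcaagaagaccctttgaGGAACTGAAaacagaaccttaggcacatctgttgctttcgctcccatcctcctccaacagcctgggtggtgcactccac
Igl between-cluster peak: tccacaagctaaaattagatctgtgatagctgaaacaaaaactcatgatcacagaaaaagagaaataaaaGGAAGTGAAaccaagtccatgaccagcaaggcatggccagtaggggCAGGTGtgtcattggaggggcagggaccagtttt
peak near Iglv1: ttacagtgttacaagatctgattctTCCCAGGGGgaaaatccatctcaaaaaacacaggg
peak near Iglv2: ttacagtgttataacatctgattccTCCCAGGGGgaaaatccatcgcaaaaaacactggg
peak downstream of Igha: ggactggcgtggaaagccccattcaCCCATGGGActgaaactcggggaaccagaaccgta

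Igh held most of the immunoglobulin peaks and more of them in MPP4 than in MPP3 cells, whereas Igk had few peaks in either and Igl had peaks in MPP3 cells alone. Igh had 47.0 peaks per Mb in MPP3 and 54.0 in MPP4 cells, beside 35.6 and 35.3 over all autosomes. Igk had 7.08 and 4.92 peaks per Mb, and the 7 Igl peaks of MPP3 cells came to 23.3 per Mb of its much smaller window. For comparison, the T cell receptor loci had 36.7 and 47.3 peaks per Mb (Tra and Trd), 38.97 and 44.96 (Trb) and 51.5 and 45.8 (Trg). The Igh density was thus above that of the genome in both cell types, and the Igk density was below that of the genome and of the 3 T cell receptor regions. Peak density also varied around Igh, with 118 and 115 peaks in the 1 Mb below the window and 28 and 23 in the 1 Mb above it.

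Most Igh peaks were of modest height. The median level was 2.04 on the log2 CPM scale in MPP3 and 2.29 in MPP4 cells, beside 2.24 and 2.35 for all peaks, and the median Igh peak stood at the 44.6 percentile of the MPP3 and the 48.4 percentile of the MPP4 peaks. Igk peaks were lower, with a median of 1.35 in MPP3 and 1.63 in MPP4 cells, and the Igl peaks of MPP3 cells had a median of 1.61. Igh was also the locus in which the cell types had most peaks in common. Of the Igh peaks, 119 overlapped a peak of the other cell type, which was 88.8% of the MPP3 and 77.3% of the MPP4 peaks, beside 75.7% and 76.7% over all peaks. In Igk, 10 peaks were shared, 43.5% of the MPP3 and 62.5% of the MPP4 peaks, and in Igl 0 of 7. The members nearest the window ends belonged in part to other genes. The outermost Igh peak lay over Zfp386, a zinc finger gene, with a level of 5.49 in MPP3 and 5.65 in MPP4 cells, and the next peak outside had 1.29 and 2.64. At the lower Igk end the first peak inside was a different one in each cell type. In MPP3 cells it lay over the noncoding RNA Gm42889 and had 6.13, and its counterpart in MPP4 cells had 5.63. In MPP4 cells it lay nearer to the window end (chr6:67510838) and had 1.07. The nearest peaks outside, also at different places, had 0.74 in MPP3 and 0.81 in MPP4 cells.

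At the peaks found in both cell types, the Igh level was mostly higher in MPP4 cells. The MPP4 level was higher at 96 of 119 shared Igh peaks (80.7%), with a median difference of 0.50 on the log2 scale (MPP4 minus MPP3), beside 53.0% and a median of 0.04 over the 66324 shared peaks of all autosomes. In the neighborhood, 48.7% of the 119 shared peaks in the 1 Mb on each side of Igh were higher in MPP4 cells, with a median of -0.02. MPP4 peaks were often wider, and per kb of peak length the median Igh difference was 0.34, with 95 of 119 peaks higher in MPP4 cells. In Igk, 5 of 10 shared peaks were higher in MPP4 cells and the median difference was 0.01. Without the 2 shared peaks over Gm42889, outside the V segments, it was 5 of 8 peaks with a median of 0.12. The parts of the loci are taken in turn below.

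**Figure D1:**
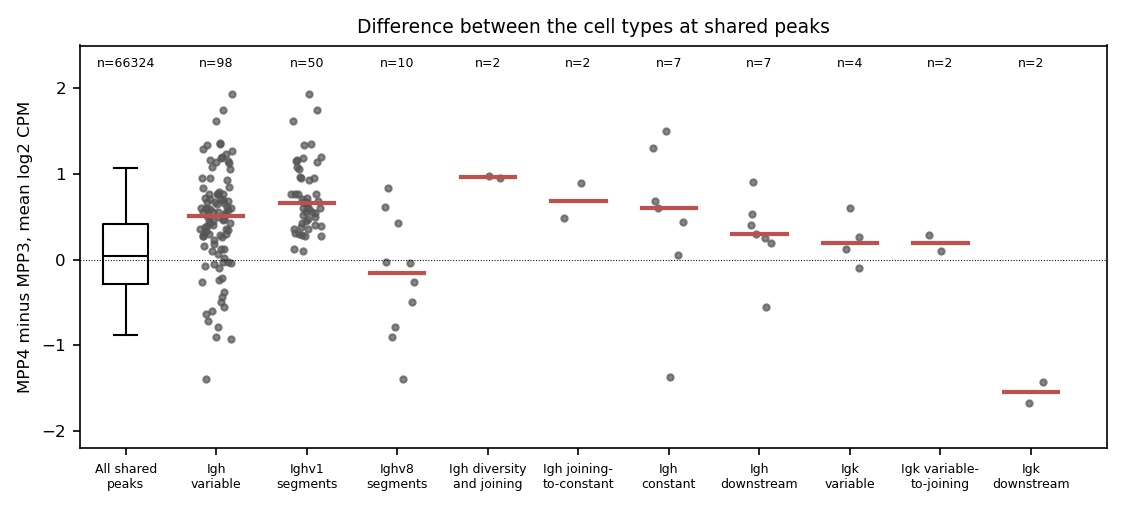
Difference between MPP4 and MPP3 cells at shared peaks (vertical axis, mean log2 CPM of MPP4 minus that of MPP3) for all shared peaks (box from the lower to the upper quartile with the median, whiskers from the 5 to the 95 percentile) and for each part of Igh and Igk. Points are single peaks, red lines are medians, and the Ighv1 and Ighv8 points are the V segments of those families with a peak in both cell types. All 50 Ighv1 points lie above 0, 7 of 10 Ighv8 points lie below it, and both peaks beyond Igkc lie near -1.5.

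The variable part of Igh spans 2437 kb and held 103 of the 134 Igh peaks of MPP3 cells and 126 of the 154 of MPP4 cells. Their centers gathered at the ends of V segments, where the recombination signal is. The center lay within 1 kb of a V segment for 68 of 103 peaks in MPP3 (66.0%) and 79 of 126 in MPP4 cells (62.7%). Of these, 65 of 68 and 74 of 79 had their center within 200 bp of the 3′ end of the segment, and 0 and 1 within 200 bp of its 5′ end, the side of the promoter. The median distance of the center from the 3′ end was -1.5 bp in MPP3 and -10.5 bp in MPP4 cells, where negative values lie on the side of the segment. The peaks at segments had a median level of 2.47 and 2.89 log2 CPM, and those farther away had 1.59 in both cell types. Per kb of peak length the medians were 4.08 and 4.56 at segments and 3.64 and 3.65 farther away.

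**Figure D2:**
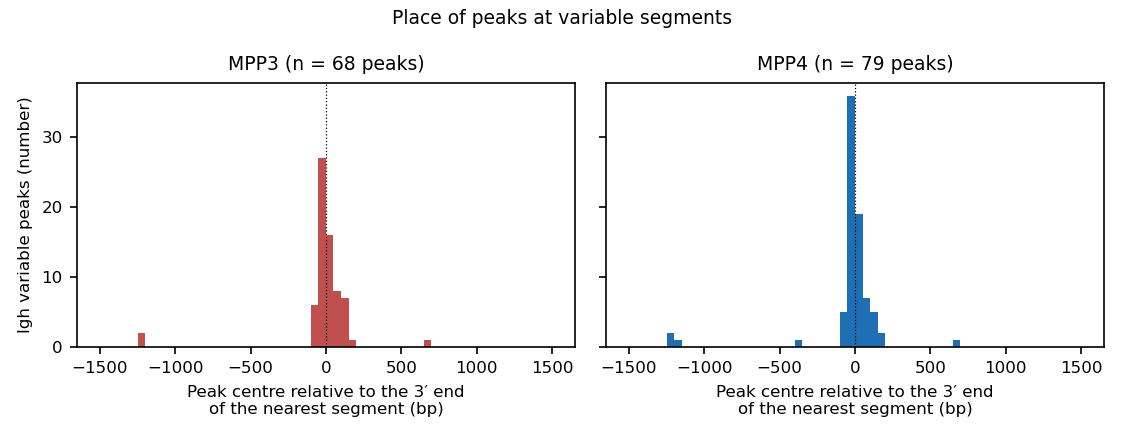
Distance of the peak center from the 3′ end of the nearest V segment (horizontal axis, bp, negative toward the 5′ side) for the Igh peaks within 1 kb of a segment, as the number of peaks in bins (vertical axis) for MPP3 and MPP4 cells. Most peaks lie at the segment end, 65 of 68 in MPP3 and 74 of 79 in MPP4 cells within 200 bp of it.

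The V peaks were unevenly spread along Igh. From the first V segment to the first Ighv1 segment, the 0.779 Mb nearest to the D segments, 73 segments had only 6 peaks in MPP3 and 9 in MPP4 cells, or 7.70 and 11.6 per Mb. The highest of these reached 1.94 and 2.57 log2 CPM. The rest, 1.66 Mb with 124 segments, had 97 and 117 peaks, or 58.5 and 70.6 per Mb, with maxima of 4.72 and 5.27. Peaks were thus dense in the distal Ighv1 region and sparse in the part nearest to the D segments, which includes the Ighv5 and Ighv2 families. The 44.9 kb between the first V segment and the nearest annotated D gene or pseudogene had 0 peaks in both cell types. Because D pseudogenes set this boundary, the shared peak near Adam6b described below was counted with the D and J segments.

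**Figure D3:**
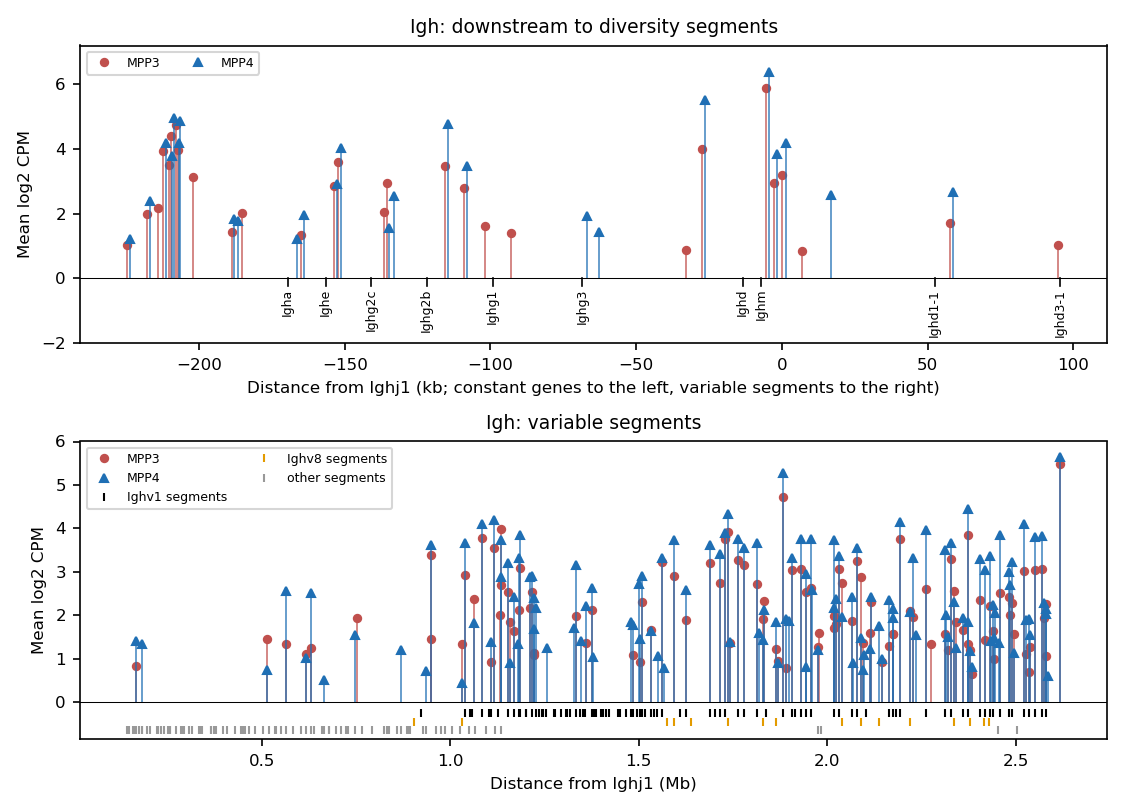
Peaks along Igh, with distance from Ighj1 on the horizontal axis (kb in the upper panel, Mb in the lower) and mean log2 CPM on the vertical axis for MPP3 and MPP4 cells. The upper panel runs from the region beyond Igha to the D segments, and the lower panel holds the V segments, whose families are marked by ticks below 0. The Ighm switch peak (5.88 in MPP3 and 6.37 in MPP4 cells) is the highest of the upper panel, and peaks are sparse before the first Ighv1 segment.

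By segment, 66 of 197 Igh V segments had a peak within 1 kb in MPP3 cells and 75 in MPP4 cells, and the 75 included all 66. By annotation, 51 and 58 of 113 V genes and 15 and 17 of 81 V pseudogenes had a peak. The Ighv1 family, known as J558 and by far the most numerous, had peaks at 50 and 53 of 93 segments. Ighv8, whose members lie among the Ighv1 segments, had peaks at 10 and 11 of 16. All other Igh segments together had peaks at 6 and 11 of 88. Among these were 2 and 3 of 4 Ighv14 segments, 0 and 2 of 4 Ighv9, and 1 of 22 Ighv5 in each cell type. In Igk, 9 and 6 of 176 V segments had a peak, and all 3 Igkv10 segments had one in both cell types.

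**Figure D4:**
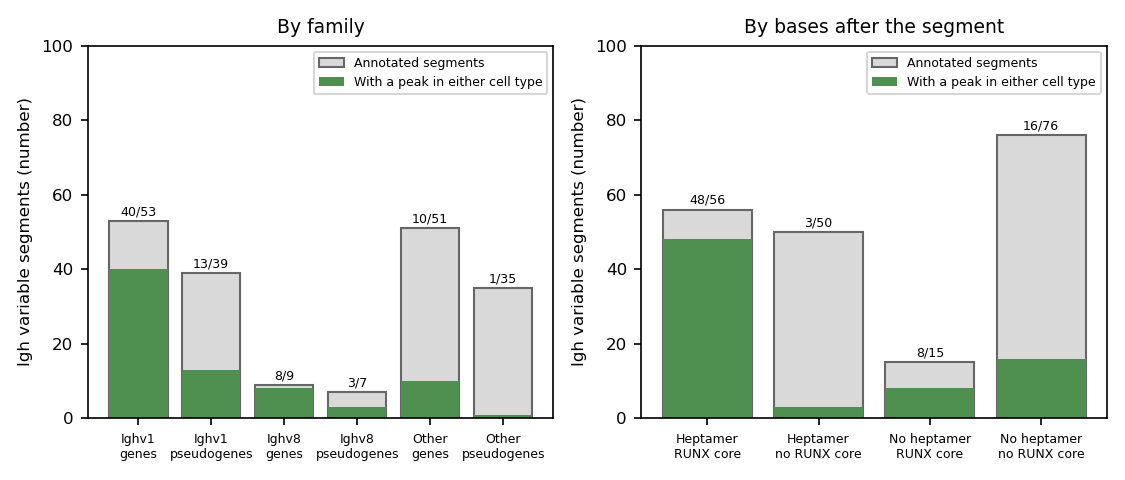
Number of Igh V segments annotated (gray bars) and number with a peak within 1 kb in either cell type (green bars), by family and annotation (left) and by the consensus heptamer and the ACCACA core in the bases after the segment (right). The left panel leaves out 3 segments with other annotations, none of which had a peak. A peak was found at 40 of 53 Ighv1 genes, 13 of 39 Ighv1 pseudogenes and 48 of 56 segments with both the heptamer and the core.

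The highest V peak in both cell types lay at Ighv1-58 (chr12:115311936-115312363 in MPP3 cells), with 4.72 log2 CPM in MPP3 and 5.27 in MPP4 cells. It was followed in MPP3 cells by Ighv15-2 with 3.98 (3.74 in MPP4), Ighv8-6 with 3.91 (4.34 in MPP4), Ighv1-74 with 3.84 (4.44 in MPP4) and Ighv1-5 with 3.77 (4.09 in MPP4). In MPP4 cells, a peak 2.1 kb from Ighv10-4 (chr12:114544925, 4.20, and 3.55 in MPP3) and Ighv1-69 (4.14, and 3.75 in MPP3) were also among the highest. Of these leading peaks, Ighv15-2 alone had the lower level in MPP4 cells. The segments shown above as without a peak, Ighv2-2 and Ighv1-16, carry the heptamer CACAGTG but not the ACCACA core.

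The levels of the cell types were also compared within the 2 families with most peaks, a split that was made after the values were seen and was not tested. Of the 50 Ighv1 segments with a peak in both cell types, all 50 had the higher level in MPP4 cells, with a median difference of 0.67 and a range from 0.10 to 1.94. All 50 were also higher per kb of peak length, with a median of 0.50. Of the 10 Ighv8 segments, 3 were higher in MPP4 cells, with a median difference of -0.15 and a range from -1.39 to 0.84, and 5 were higher per kb. Reads that map to several places could blur such counts, so each segment end was compared with the genome. Within 200 bp of the 3′ end, 28 of the 50 Ighv1 segments had no 100-base stretch that occurs elsewhere, and 28 of these 28 were higher in MPP4 cells. With the same condition, 1 of 6 Ighv8 segments was. The remaining 6 segments, of other families, had 3 higher in MPP4 cells.

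Toward MPP4 cells, the largest differences were at Ighv1-71 (1.57 and 3.51, a difference of 1.94), Ighv1-62-2 (1.97 and 3.72, a difference of 1.75) and Ighv1-76 (1.43 and 3.05, a difference of 1.62). The first 2 peaks hold many 100-base stretches with another copy in the genome (40.5% and 51.7% of the MPP3 peak), and the part of this in the values was not tested. Toward MPP3 cells, they were at Ighv8-10 (2.88 and 1.48, a difference of -1.39), at a peak near Ighv1-9 (chr12:114587270, 1.84 and 0.91, a difference of -0.92) and at Ighv8-2 (1.33 and 0.43, a difference of -0.90). The peak near Ighv1-9 was narrower in MPP4 cells, and per kb it was 0.15 higher there. The highest V peaks without a counterpart were weak to moderate. In MPP3 cells they were chr12:114562540 (2.01), chr12:114182749 (1.94) and chr12:115407449 (1.59), and in MPP4 cells chr12:114931187 (2.71), chr12:115388491 (2.58) and Ighv1-15 (2.17).

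The sequence under the V peaks held recombination signals. A heptamer CACAGTG was present in 51 of 68 MPP3 and 55 of 79 MPP4 peaks at Igh segments (69.6% of the latter), beside 11.7% and 12.2% of all peaks of similar length. A heptamer with a nonamer at the right spacing (up to 3 mismatches in the nonamer) was present in 66.2% and 63.3%, beside 0.85% and 0.91%. Peaks at segments lie where such signals are, so these contrasts with all peaks are partly set by that choice. By segment, the heptamer followed 51 of 75 with a peak in either cell type (68.0%) and 55 of 122 without one (45.1%). In the peaks at Igh segments, the RUNX core TGTGGT was present on either strand in 91.2% and 88.6%, beside 31.6% and 34.7%. Other motifs were rare at the segments. The EBF1 motif was found in 0 of 68 and 0 of 79 of these peaks, the PU.1 motif GAGGAAGT in 1 of each and the octamer ATGCAAAT, which V promoters share, in 1 of each. E-boxes were present in 13.2% and 16.5%, beside 38.4% and 40.5% of all peaks of similar length.

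In the V peaks farther than 1 kb from a segment, E-boxes were present in 22 of 35 in MPP3 and 30 of 47 in MPP4 cells (62.9% and 63.8%, beside 34.1% and 34.9% at similar length), and a match to the CTCF core in 7 of 35 and 9 of 47 (19.1% of the latter, beside 5.97% and 6.52%). CTCF is the protein that anchors chromatin loops and shapes the contraction of Igh. The RUNX core TGTGGT was also frequent in these farther peaks, in 24 of 35 in MPP3 and 34 of 47 in MPP4 cells. That was 68.6% and 72.3%, beside 28.6% and 30.4% at similar length. Of the peaks beyond 1 kb, 12 in MPP3 and 15 in MPP4 cells lay 2 to 4 kb upstream of a V segment, and 2 and 3 lay at that distance downstream. At the shared peaks of this kind, 20 of 30 were higher in MPP4 cells, with a median difference of 0.25, and at those near a segment 58 of 68, with a median of 0.56.

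The RUNX core stood at a fixed place in many segments. ACCACA, read in the direction of the segment and searched in the 39 bases after it, was present at 71 of 197 Igh V segments, at base 13 after the segment in 65 of them, which is within the spacer of the recombination signal. This search was added after the sequences were seen. Of the 71 segments with the core, 56 (78.9%) had a peak, and of the 126 without it 19 (15.1%) did. With both the consensus heptamer and the core, 48 of 56 segments had a peak, and with the heptamer but no core 3 of 50. With the core but no consensus heptamer it was 8 of 15, and with neither 16 of 76. Family membership overlaps with the core, and the values were therefore also split by family. Within Ighv1, 51 of 64 segments with the core had a peak and 2 of 29 without it. In families other than Ighv1 and Ighv8 it was 5 of 7 and 6 of 81. Of the 16 Ighv8 segments, none had the core or the consensus heptamer and 11 had a peak. In Igk, 4 of 176 segments had the core, and 0 of these 4 had a peak, beside 11 of 172 without it. All 50 segments with the core and a peak in both cell types had the higher level in MPP4 cells, and of the 16 without the core 6 did. This contrast largely repeats the one between families. Of the 50, 48 were Ighv1 segments. The 16 comprised 10 Ighv8 segments (3 higher), 2 Ighv1 segments (2 higher) and 4 of other families (1 higher). The part of the core in the levels was not tested. At base 13 the core lies between the places of the heptamer and the nonamer, which does not hold at every other position found. A match of letters does not show that a protein was bound.

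The D and J segments, D pseudogenes included, span 99.5 kb, with 4 peaks in MPP3 and 3 in MPP4 cells. The highest lay over Ighd4-1, the D segment nearest to the J segments (known as DQ52), at chr12:113430307-113430688 in MPP3 and chr12:113430382-113430710 in MPP4 cells. Its level was 3.21 in MPP3 and 4.18 in MPP4 cells, a difference of 0.97. It held the letters of the heptamer and of the nonamer, on opposite sides of the segment, and a PU.1 motif. No complete signal with the consensus heptamer was found in it. The second shared peak (chr12:113487728-113488213 in MPP4 cells) lay 1.5 kb from Adam6b, a gene needed for male fertility, and had 1.71 and 2.67, a difference of 0.96. Of the peaks without a counterpart, 1 lay near Ighd3-2 in MPP4 cells (chr12:113446117-113446437, 2.59), and the others in MPP3 cells, at chr12:113437224 and chr12:113525075, had 0.85 and 1.05. Per kb of peak length, the peak over Ighd4-1 differed by 1.19 and the one near Adam6b, which was wider in MPP4 cells, by -0.09.

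The 5.78 kb between the J segments and Ighm held 2 peaks in each cell type, both shared. The one nearer to the J segments, in the interval that holds Eμ, lay 1015 bp from Ighj4 in MPP3 cells (chr12:113427400-113427598) and 1000 bp from it in MPP4 cells (chr12:113427386-113427642). It had a level of 2.96 in MPP3 and 3.85 in MPP4 cells, or 5.29 and 5.81 per kb. The sequence printed above holds the octamer, which OCT proteins bind, and 3 E-boxes, which E2A and related proteins bind. The other peak was the highest of all Igh peaks in both cell types and by far the widest, at chr12:113424334-113425561 in MPP3 (5.88) and chr12:113424284-113425574 in MPP4 cells (6.37). Per kb it had 5.59 and 6.00, close to its neighbor. It covers switch repeats, with 196 pentamers in the MPP3 peak and 203 in the MPP4 peak (160 and 157 per kb). The next highest density among the Igh peaks outside the V part was 55.8 per kb. Repeats masked 78.8% of the MPP3 peak, yet none of its 100-base stretches occurred elsewhere in the genome.

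The constant part, 168 kb from Igha to Ighm, had 11 peaks in each cell type, of which 7 were shared, and 6 of the 7 were higher in MPP4 cells with a median difference of 0.61. The highest lay 3.6 kb from Ighd, the constant gene of IgD, at chr12:113402814-113403237 in MPP3 (4.01) and chr12:113402799-113403245 in MPP4 cells (5.51), a difference of 1.51. A second lay near the constant pseudogene Gm37944 (chr12:113314660-113315055, 3.46 in MPP3 and 4.77 in MPP4 cells, a difference of 1.31). The peak at chr12:113321081, on its other side, had 2.79 and 3.48. Per kb of peak length, these 3 peaks differed by 1.43, 0.97 and 1.08. Near Ighe, the constant gene of IgE, the peaks at chr12:113265105, chr12:113276463 and chr12:113277775 had 1.35, 2.87 and 3.58 in MPP3 and 1.96, 2.92 and 4.02 in MPP4 cells. The exception was a peak near Ighg2c, a constant gene of IgG (chr12:113294554, 2.94 in MPP3 and 1.57 in MPP4 cells, a difference of -1.37). This peak was much wider in MPP3 cells, and per kb the difference was -0.03. Without a counterpart, MPP3 cells had peaks at chr12:113293802 (2.05), inside Ighg1 (chr12:113328201, 1.60), at chr12:113337250 (1.41) and at chr12:113397443 (0.89), and MPP4 cells at chr12:113296008 (2.56), chr12:113362469 (1.93), chr12:113366495 (1.44) and chr12:113262755 (1.23).

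Beyond Igha, the 54.8 kb that hold the 3′ regulatory region had 11 peaks in MPP3 and 9 in MPP4 cells, with 7 shared. The shared peaks formed a cluster 31.9 to 36.8 kb from Igha with 2 weaker peaks farther out. In the cluster, the levels were 3.94 in MPP3 and 4.19 in MPP4 cells (chr12:113217916), 3.501 and 3.80 (chr12:113219967), 4.42 and 4.95 (chr12:113220555), 4.74 and 4.19 (chr12:113222140) and 3.96 and 4.87 (chr12:113222831). All but 1 were higher in MPP4 cells, and the exception, which was wider in MPP3 cells, was 1.11 higher in MPP4 cells per kb. The second of these holds the CTCF core, and the last holds an EBF1 motif. The weaker peaks at chr12:113205603 and chr12:113212482 had 1.03 and 1.98 in MPP3 and 1.22 and 2.39 in MPP4 cells. Nearer to Igha, the cell types had different peaks. MPP3 cells alone had a peak 26.5 kb from Igha (chr12:113228162-113228574, 3.12) with an EBF1 motif and an octamer, and one 9.9 kb from it (chr12:113244788, 2.03) with an octamer and 3 E-boxes. Their other unshared peaks were at chr12:113216031 (2.18) and chr12:113241492 (1.44), and MPP4 cells had unshared peaks at chr12:113241060 (1.83) and chr12:113242602 (1.78). The peak with the EBF1 motif was the highest unshared Igh peak of MPP3 cells.

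In Igk, peaks around the constant gene were found mainly in MPP3 cells. The intronic enhancer interval held a peak in MPP3 cells (chr6:70725774-70726006, 545 bp before Igkc, 1.53 log2 CPM) and none in MPP4 cells. Beyond Igkc, MPP3 cells had 3 peaks and MPP4 cells 2. The peak 8.8 kb beyond it (chr6:70735581-70735920, 2.49) was found in MPP3 cells alone and lies in the interval of the 3′ enhancer, where PU.1 and IRF4 are known to bind together. Its sequence holds the composite of their motifs and 2 E-boxes. The peaks on either side were shared and lower in MPP4 cells. The first (chr6:70730859-70731177) had 2.69 in MPP3 and 1.02 in MPP4 cells, a difference of -1.67, and the other (chr6:70743993-70744317), 17.2 kb beyond Igkc in the interval of the distal enhancer, had 2.04 and 0.61, a difference of -1.43. Both were narrower in MPP4 cells, and per kb the differences were -0.58 and -0.67. The direction at these sites was thus opposite to that of most Igh peaks.

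On the other side of the Igk J segments, between them and the V segments, the 2 shared peaks were similar in the cell types, with 2.62 and 2.73 (chr6:70709352-70709633) and 3.13 and 3.42 (chr6:70714338-70714632). The latter lay 8.1 kb before Igkj1. The peak at chr6:70716940 was in MPP3 cells alone (1.22). The Igk V part, 3149 kb, had 13 peaks in MPP3 and 9 in MPP4 cells, of which 4 were shared. All 4 were at V segments, Igkv10-96 (2.45 and 2.57), Igkv10-95 (2.44 and 2.35), Igkv10-94 (1.35 and 1.95) and Igkv8-21 (1.55 and 1.82). The unshared Igk V peaks were low, with the highest at 1.30 in MPP3 cells (near Gm43586) and at 1.45 and 1.36 in MPP4 cells (chr6:67566367 and chr6:67565882). Of the peaks in the Igk window, those at 6.13 and 4.08 in MPP3 and 5.63 and 3.34 in MPP4 cells lay outside the V segments over the noncoding RNA Gm42889, and are no part of Igk itself.

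**Figure D5:**
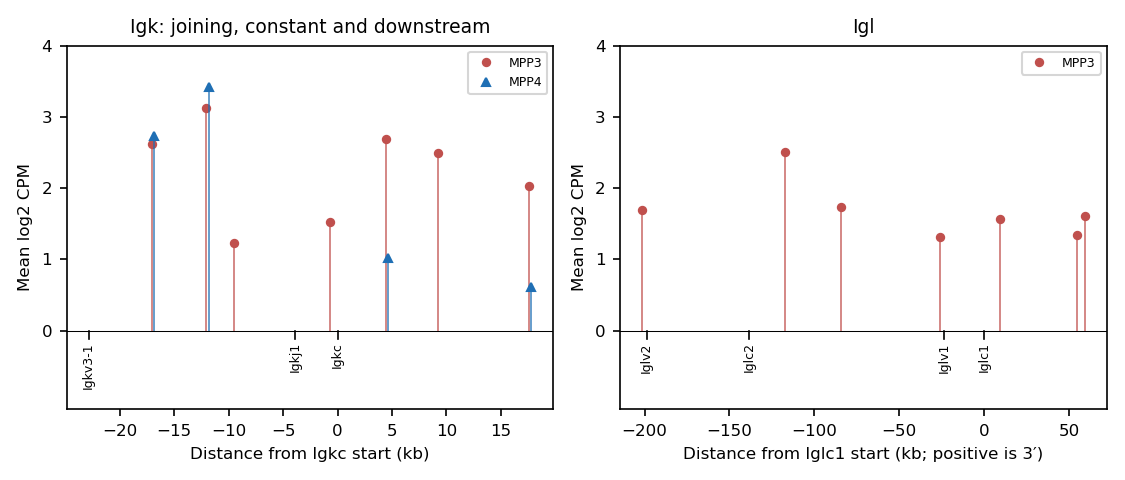
Peaks around the Igk joining and constant genes (left, distance from the start of Igkc in kb) and along Igl (right, distance from the start of Iglc1 in kb, positive toward the 3′ side of the genes), with mean log2 CPM on the vertical axis. MPP3 cells have 7 Igk peaks in the left panel and MPP4 cells have 4, and all 7 Igl peaks are of MPP3 cells.

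Igl had 7 peaks in MPP3 and 0 in MPP4 cells. The highest (chr16:19179277-19179675, 2.51) lay between the Igl gene clusters, 15.5 kb from Iglc4, in the interval of an Igl enhancer. Like the peak beyond Igkc, it holds the PU.1 and IRF composite and 2 E-boxes. The 2 peaks were the only ones of MPP3 cells in the 3 loci with the composite. That was 2 of 164 (1.22%), beside 3.70% of MPP3 peaks of similar length and 3.75% of all MPP3 peaks. A second pair lay 2.6 kb from the V segments Iglv1 (chr16:19087956, 1.32) and Iglv2 (chr16:19263297, 1.70), and both peaks hold the EBF1 motif in a similar stretch of sequence, as printed above. The other peaks, at chr16:19002703, chr16:19007315, chr16:19052906 and chr16:19146337, had 1.61, 1.34, 1.56 and 1.73. At 1.32 to 2.51 log2 CPM, all but the highest of the Igl peaks were below the median of all MPP3 peaks (2.24).

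The EBF1 motif was found mainly in immunoglobulin peaks of MPP3 cells that had no counterpart. EBF1 is the B lineage factor whose gene was deleted in the KO mice, and its motif was searched in both tables. It was present in 9 of 35 such peaks (25.7%), beside 6.38% of all MPP3 peaks without a counterpart. It was present in 1 of 129 shared immunoglobulin peaks (0.775%), beside 7.81% of all shared peaks, and in 1 of 41 peaks of MPP4 cells alone (2.44%), beside 2.96%. The split by sharing was made after the data were seen. The 9 peaks were in all 3 loci, with 3 in Igh (chr12:113228162, chr12:113293802 and chr12:113397443), 4 in Igk (chr6:67555335, chr6:68598136, chr6:68884204 and chr6:70040956) and the 2 near Iglv1 and Iglv2. Their levels ran from 0.58 to 3.12, and apart from the Igh peak of 3.12 and the one of 2.05 they were below 2. Over all immunoglobulin peaks of MPP3 cells the motif was in 6.10%, beside 6.63% at similar length.

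Genes of the recombination and pre-B cell receptor machinery were read from peaks within 1 kb of their transcript starts. Of 18 genes in the list, 14 had such a peak in MPP3 and 12 in MPP4 cells, and of the 11 with one in both, 2 had the higher level in MPP4 cells. Rag1, the recombinase subunit that cuts DNA, had 1.96 in MPP3 and 1.75 in MPP4 cells, and its partner Rag2 had 1.66 in MPP3 cells alone. Vpreb1, a surrogate light chain gene, had 5.02 and 4.84, and Igll1, which encodes its partner, had 3.55 in MPP3 cells alone. Vpreb3 had 0.91 in MPP4 cells alone. Cd79a and Cd79b, the signaling chains of the B cell receptor, had 3.04 and 2.62 in MPP3 cells, and in MPP4 cells Cd79a had none and Cd79b 1.89. The adaptor Blnk had 3.45 and 3.03 and the kinase Syk 4.92 and 4.72. Among the broadly expressed genes of DNA end joining, Prkdc had 6.72 and 6.61, and the 2 genes higher in MPP4 cells were of this kind, Xrcc5 (4.12 and 4.50) and Dclre1c (6.60 and 6.92). No start peak was found for Dntt and Xrcc6, and Btk is on chromosome X, which the tables leave out.

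Marker genes were read in the same way. Of 5 markers of MPP4 cells, 3 had a start peak in both cell types and the higher level in MPP4 cells, Flt3 (5.92 in MPP3 and 7.01 in MPP4 cells), Il7r (2.70 and 3.64) and Satb1 (4.93 and 5.33). Of the others, Ccr9 had 1.08 in MPP3 cells and no start peak in MPP4 cells, and Dntt had none in either. Of 5 markers of MPP3 cells, 4 had the higher level in MPP3 cells, Mpo (5.98 and 3.95), Cebpe (2.78 and 1.54), Elane (3.01 and 1.80) and Cebpa (6.40 and 6.10), and Csf1r had no start peak in either. Among the B cell markers, Ebf1 had 3.10 in MPP3 and 2.93 in MPP4 cells, and Pax5 and Ms4a1 had 1.53 and 2.18 in MPP3 cells and no start peak in MPP4 cells. Cd79a and Cd79b, given above, were also in this list. Of 4 T cell markers, 2 and 3 had one, with Lck at 1.83 and 2.99, and 1 of 3 erythroid markers had one in each cell type. These levels are pooled by cell type like those of the immunoglobulin peaks, and their part in the results was not tested.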

How the data were processed

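ATAC-seq libraries of MPP3 and MPP4 cells, grouped by their labels, were trimmed with Cutadapt 2.10, mapped to mm10 and reduced to short, well mapped fragments without duplicates by the authors. The authors called peaks with MACS2 2.2.7.1 on the merged replicates of each condition, joined them within a cell type and fitted genotype with edgeR 3.32.0. The deposited log2 CPM is the authors' mean over the 4 libraries of a cell type. The tables' log2 fold changes, F statistics, p-values and FDR are the authors' own genotype comparison and were not used. Without values per library no test was made.

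Peaks were placed in windows, parts and V segments by their center with GRCm38 and GENCODE vM21, with starts counted from 1. Shared peaks overlap by at least 1 bp. Motifs were searched on both strands and set beside peaks of similar length (bins of 50 bp). Python 3.11.15, numpy 2.4.6, pandas 2.3.3 and scipy 1.17.1 were used, and scripts were tested on simulated data. The peaks named were those outside the V parts and, in the V parts, the 5 highest per cell type, the 3 largest differences each way and the 3 highest unshared per cell type, in part summarized. Alternatives varied windows, minimum level, overlap, distance, scaling and signal mismatches. The loci, lists and motifs were chosen with earlier results of these data known, and the composite motif, the ACCACA core, the pentamers and the splits by family and sharing were added after seeing the data. Wilson intervals (95%) cover counts of peaks only. Part of the B cell marker list is not reported here.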

Additional observations from a re-analysis of the deposited data

How the results depend on the processing

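No paired analysis was possible because the tables carry no values per library, and replicates could not be left out for the same reason. Of 118 alternative values for the main results, 96 stayed near the reported value and 22 moved. The median difference at the 10 shared Igk peaks, 0.01, was near 0 and changed sign, to -0.02 per kb and -0.03 less the median of all shared peaks. At the 8 shared Igk peaks that remain without those over Gm42889, it was 0.12, and 0.04 per kb. With peaks of at least 2 log2 CPM, Igh had 70 peaks in MPP3 and 89 in MPP4 cells. These came to 24.6 and 31.2 per Mb, beside 20.2 and 20.8 over all autosomes at the same minimum. Igk then had 9 and 6 (2.77 and 1.85 per Mb), and Igl had 1 in MPP3 cells (3.33 per Mb). At a minimum of 1, Igk had 14 in MPP3 cells. Shared peaks with at least 2 came to 61 in Igh and 6 in Igk, counted from either table. Over all Igh V peaks, near a segment or not, 49.5% in MPP3 and 43.7% in MPP4 cells held a complete signal. With at most 2 nonamer mismatches it was 31.1% and 28.6%, and 45.6% and 44.3% in the peaks at segments. A heptamer, with or without a nonamer, was present in 54.0% of all Igh V peaks of MPP4 cells. Per kb, the median difference was 0.33 over all shared immunoglobulin peaks, 0.34 in Igh and 0.33 in the Igh V part, and by percentile ranks 3 of 10 shared Igk peaks were higher in MPP4 cells. Weak peaks limit Igk and Igl most, since their presence in a table depends on depth, which is unknown here. The difference in age between groups and the 1 male mouse could not be examined, and their part was not tested.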
